A study of Mus musculus with 16 samples.

Results

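The response of control kidney to a high-fat diet (HFD) was read by setting 4 HFD-fed control arrays against 4 chow-fed control arrays, 8 of the 16 arrays of the series, across all genes. Each array held total RNA of whole mouse kidney, and a gene's value is that of its brightest probe set, taken from probe sets that carry 1 gene symbol, which gave 22180 genes. The HFD held 60 kcal% fat and the chow 10 kcal% fat, each fed for 20 weeks. The other 8 arrays, 4 of HFD-fed and 4 of chow-fed mice, are labelled NiPKO, for a deletion of PGC-1α, a transcriptional coactivator of mitochondrial genes, in the renal tubule, and served only for the spread and for the comparison with the control response. According to the methods all mice were male. NiPKO mice carried floxed PGC-1α alleles together with a Pax8-rtTA transgene and the LC1 (tetO-cre) transgene, so that doxycycline (DOX) switches Cre on in tubule cells and not in glomeruli. Controls were littermates on a partly mixed strain background. Which of these alleles the controls carried was not given in the sources used here. DOX was given at 0.2 mg/ml in sweetened drinking water for 2 weeks from 12 weeks of age, and both diets began after it. Although labelled biological replicates, the arrays are not linked to single animals in the labels, and p-values reflect only how far these arrays differ among themselves.

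The kidney takes up fatty acids as its main fuel. Most of them are burnt in the proximal tubule, where the nuclear receptor PPARα turns on genes of fatty acid uptake and oxidation when fatty acids are plentiful. Cells that have enough sterol hold the SREBP transcription factors back in the endoplasmic reticulum, and genes of cholesterol and fatty acid synthesis are then less transcribed. In whole-kidney RNA, fewer cells of a type and less RNA in each of them cannot be told apart.

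At a Benjamini-Hochberg adjusted p under 0.05 from limma, 86 genes were lower in HFD-fed than in chow-fed control kidney, which is 0.388% of all genes, and 39 were higher, or 0.176% (0.564% together). Rose and fell are used of these 125 genes only. At the thresholds of the methods (fold change above 1.2 and unadjusted p under 0.05) 519 genes lay lower (2.34%) and 511 higher (2.3%), or 4.64% of all genes together. The 4 HFD arrays lay entirely below the 4 chow arrays for 3.83% of all genes and entirely above them for 3.3%, together 7.12%. Of the 125 genes, 123 had arrays separated in this way. The median size of their change was 0.50 on the log2 scale, and 12 of them differed more than 2-fold, 10 lower and 2 higher. Centring each array on its median moved the adjusted counts to 133 lower and 34 higher genes, and those at the thresholds to 680 lower and 348 higher.

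**Figure D1:**
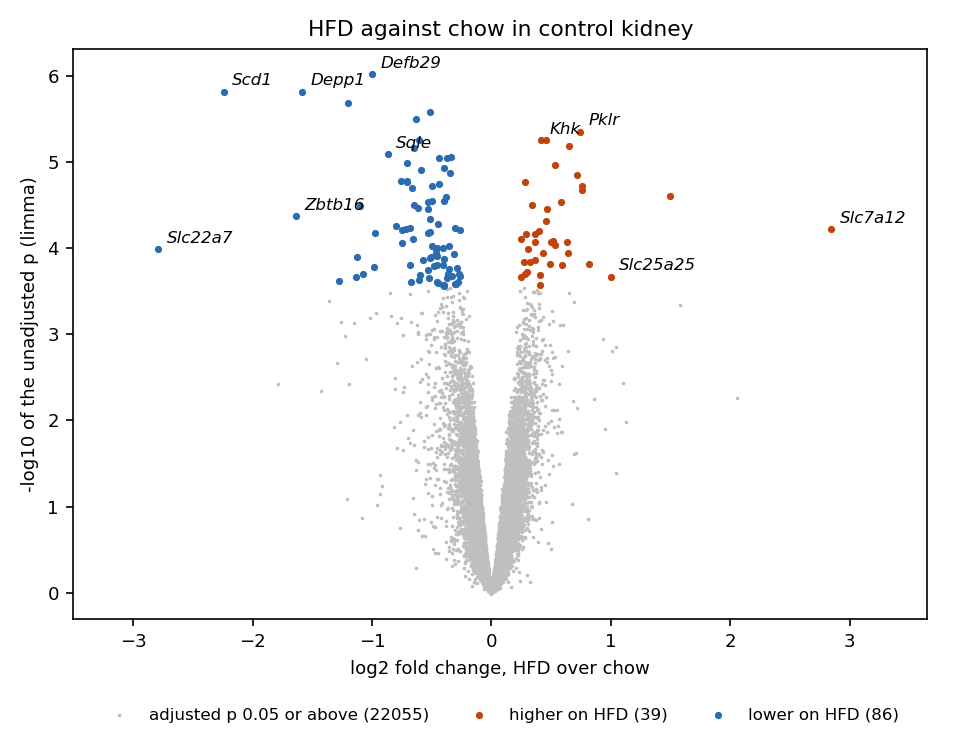
Each point is 1 of 22180 genes, with the log2 fold change of HFD-fed over chow-fed control kidney on the horizontal axis and the negative log10 of the unadjusted limma p on the vertical axis. Coloured points are the 39 genes that rose and the 86 that fell at an adjusted p under 0.05, with the lipid synthesis gene Scd1 at -2.24 and the transporters Slc22a7 at -2.79 and Slc7a12 at 2.85 farthest from 0 among those labelled.

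The arrays of a group were not equally far apart. Over the 125 genes, HFD control replicate 4 was the HFD array nearest to the chow mean for 65 genes, replicate 1 for 42, and replicates 2 and 3 for 9 each. Without replicate 4 the adjusted count was 219 genes, of which 112 belonged to the 125. It was 24 without HFD control replicate 3, 27 without replicate 2, 25 without chow control replicate 3, 79 without HFD replicate 1, 66 without chow replicate 2 and 50 without chow replicate 4. All 125 genes kept their direction in each of the 8 fits that left out 1 control array, 19 kept an adjusted p under 0.05 in every one and 81 did so in fewer than 4. Among these 19 were Scd1, Fads1, Sqle, Acsm1, Depp1 and Defb29, which fell, and Khk, Tkfc, Pklr, Slc2a5, Crybg2 and Fgf18, which rose. On the 8 control arrays alone 14 genes passed.

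Genes of cholesterol synthesis were lower on HFD. Of 18 measured genes for the enzymes between acetyl-CoA and cholesterol, 17 lay below chow, 10 of them at the thresholds of the methods, and the median log2 fold change was -0.27, against 0.01 over all genes. No gene of the pathway was higher at either threshold, and leaving out HFD control replicate 4 gave a median of -0.28. Sqle, the squalene epoxidase at the entry to the sterol branch, fell. Its log2 values were 8.20, 7.88, 7.60 and 8.24 on HFD, against 8.999, 8.74, 8.90 and 8.76 on chow, so that the log2 fold change was -0.87 ± 0.14 (standard error; adjusted p = 0.013, limma). The highest HFD array lay below the lowest chow array. Fdps, which makes farnesyl pyrophosphate, read 7.66, 7.30, 7.20 and 7.16 on HFD and 8.11, 8.08, 7.83 and 7.91 on chow, and fell by 0.65. Msmo1, a C4-methylsterol oxidase, read 6.75, 6.64, 6.26 and 6.59 on HFD and 7.15, 7.36, 7.32 and 7.40 on chow, and fell by 0.75. Neither gene overlapped between the diets, and with a single control array left out their adjusted p stayed at or below 0.076 for Fdps and 0.11 for Msmo1.

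Most of the rest of the pathway lay lower without passing the adjustment. The log2 fold change was -0.44 for Fdft1, the squalene synthase (adjusted p = 0.070, limma), -0.48 for Cyp51, the lanosterol demethylase, -0.36 for Tm7sf2, a sterol reductase, -0.31 for Nsdhl, -0.27 for Mvd, of the mevalonate branch, and -0.26 for Dhcr7, of the last step. For all of these the 4 HFD arrays lay below the 4 chow arrays. Hmgcs1, which makes HMG-CoA, was at -0.16 with overlapping arrays. The exception was Ebp, a sterol isomerase named here for its direction, at 0.22 (adjusted p = 0.31). Insig1, which retains the SREBP complex in the endoplasmic reticulum and is itself an SREBP target, read 8.71, 8.50, 8.23 and 8.60 on HFD and 9.24, 9.47, 9.25 and 9.11 on chow, and fell by 0.76 (adjusted p = 0.015). Srebf1, whose product drives fatty acid synthesis genes, fell by 0.44, with values of 6.996, 6.99, 6.82 and 6.84 on HFD and 7.34, 7.52, 7.23 and 7.31 on chow. Srebf2, its counterpart for sterol genes, had separated arrays too, with a log2 fold change of -0.27 (adjusted p = 0.13). Without HFD replicate 3 the adjusted p was 0.065 for Insig1 and 0.066 for Srebf1.

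SREBP proteins bind promoters together with the factor NF-Y, whose site is the CCAAT box. The 250 bases before the RefSeq starts (build GRCm38.p6) of 15 of the 18 sterol synthesis genes were in the promoter table, and all 15 held the letters CCAAT on 1 of the strands, against 38.7% of the 16990 tested genes with a promoter there. A gene with several starts was counted if any of them held the letters. The sterol response element TCACNCCAC, searched on both strands, was found for 1 of the 15, against 1.22% of the tested genes. Among the genes that fell and those that rose, the CCAAT share was 46.9% of 64 and 27.6% of 29. A match is a run of letters and says nothing of binding. The 3 lowest genes of the pathway with an entry, and the 1 gene with both motifs, are given with the last 180 bases before the start, 5′ to 3′ on the strand of the gene, with CCAAT or its reverse complement in capitals and, in Hmgcs1, also the sterol response element. They lie at chr8:64733579-64733758 on the minus strand for Msmo1, chr5:4104698-4104877 on the minus strand for Cyp51, chr19:6067851-6068030 on the minus strand for Tm7sf2 and chr13:119690171-119690350 on the plus strand for Hmgcs1.
Msmo1: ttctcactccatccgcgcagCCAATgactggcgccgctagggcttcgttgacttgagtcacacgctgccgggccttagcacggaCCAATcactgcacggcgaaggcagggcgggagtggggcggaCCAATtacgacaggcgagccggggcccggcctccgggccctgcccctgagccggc
Cyp51: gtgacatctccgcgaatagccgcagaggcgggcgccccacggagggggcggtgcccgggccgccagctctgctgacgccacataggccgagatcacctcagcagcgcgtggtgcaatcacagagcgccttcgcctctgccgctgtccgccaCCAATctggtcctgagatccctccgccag
Tm7sf2: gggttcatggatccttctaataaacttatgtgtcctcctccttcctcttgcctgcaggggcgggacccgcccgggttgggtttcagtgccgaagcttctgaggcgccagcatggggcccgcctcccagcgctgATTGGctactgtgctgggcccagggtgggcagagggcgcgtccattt
Hmgcs1: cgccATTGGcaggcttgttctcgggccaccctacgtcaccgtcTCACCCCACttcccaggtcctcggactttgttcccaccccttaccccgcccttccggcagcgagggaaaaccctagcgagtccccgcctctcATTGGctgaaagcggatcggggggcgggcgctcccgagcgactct

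Msmo1, the gene of the 4 with the largest fall, carried 3 CCAAT boxes, which began 160, 96 and 55 bases before the start. In Hmgcs1 the sterol response element began 137 bases before the start, between boxes at 176 and 45. Cyp51 and Tm7sf2 held 1 box each in these stretches, at 29 and 47 bases. Among the genes not shown, Mvk held 5 boxes in the last 180 bases, at a log2 fold change of -0.25. Ebp, which lay above chow, held 2. Insig1, which fell by 0.76, held neither motif in that stretch. The letters CCAAT were found for 10 of 18 fatty acid synthesis genes with a promoter. They were found for 4 of 6 genes of sterol sensing and cholesterol uptake. The number of boxes was not tested against the size of the change.

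Of 21 measured genes of fatty acid synthesis, elongation and desaturation, 17 lay below chow, 3 of which fell and 1 more was lower at the thresholds. None was higher at them, and the median was -0.06. The mean log2 value over the list was 8.40 to 8.55 on HFD and 8.64 to 8.74 on chow, with no overlap. This mean includes the 3 genes that fell, Scd1, Fasn and Fads1. The separation may rest on them, and the mean without them was not computed. The largest change was in Scd1, the stearoyl-CoA desaturase that turns saturated into monounsaturated fatty acids. It read 9.15, 8.62, 8.19 and 8.54 on HFD, against 11.24, 10.84, 10.86 and 10.52 on chow, which is 4.72-fold lower (log2 fold change -2.24, standard error 0.30, adjusted p = 0.011 from limma). Every HFD array was more than 1 log2 unit below every chow array. Fads1, the Δ5 desaturase of polyunsaturated fatty acids, read 9.85, 9.76, 9.85 and 9.70 on HFD and 10.47, 10.48, 10.34 and 10.40 on chow, and fell by 0.63. Fasn, the fatty acid synthase, read 8.79, 8.31, 8.76 and 8.73 on HFD and 9.27, 9.38, 9.38 and 9.37 on chow, and fell by 0.71. Both were separated, and with any 1 array left out the adjusted p was at most 0.036 for Scd1 and Fads1 and 0.052 for Fasn. Slc25a1, the mitochondrial citrate carrier, was at -0.20 (adjusted p = 0.053), Fads2, the Δ6 desaturase, at -0.23 and Acaca, the acetyl-CoA carboxylase, at -0.31 (adjusted p = 0.20). Acly and Elovl6, 2 further SREBP1 targets named after their values were seen, lay at -0.07 and -0.01.

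**Figure D2:**
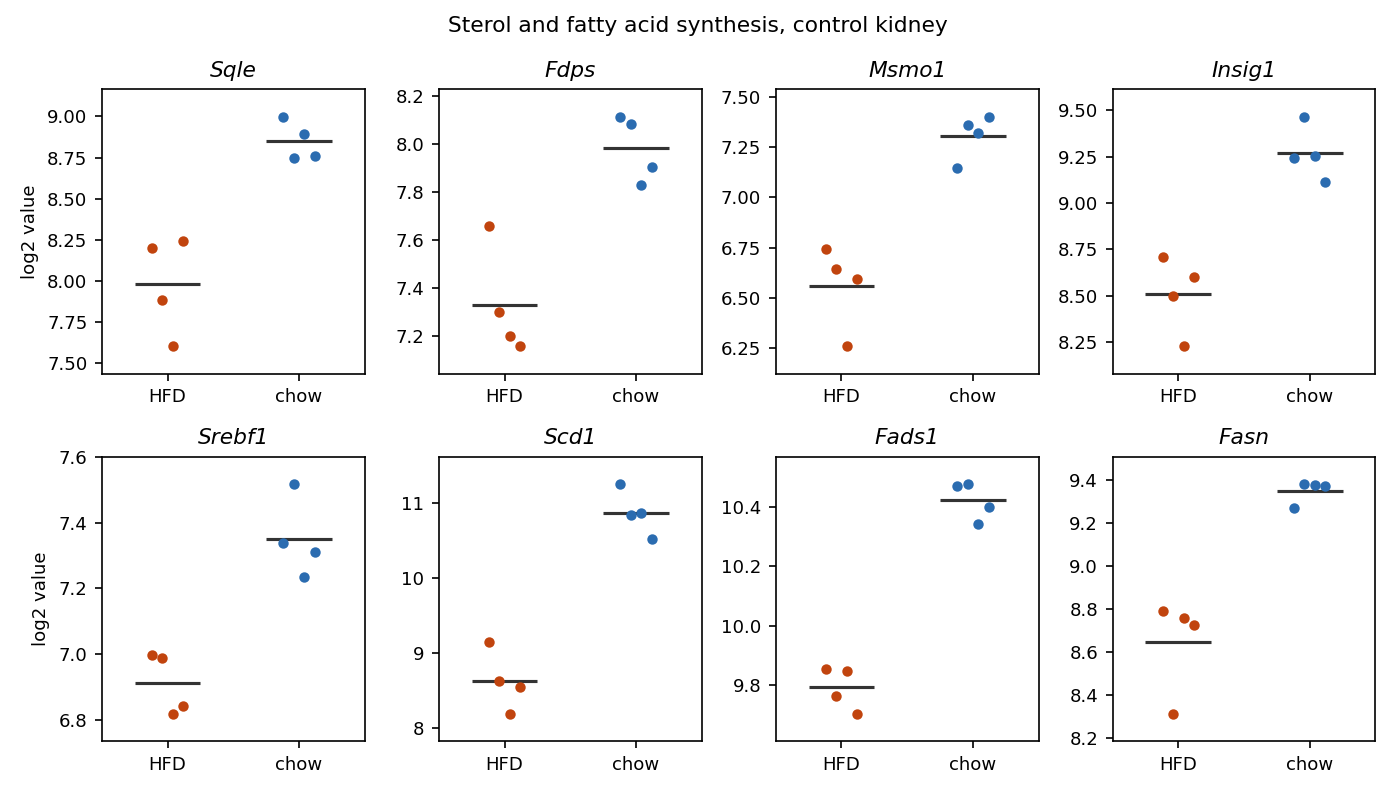
Log2 values of 8 genes of sterol and fatty acid synthesis and its control on each array, HFD-fed control kidney left and chow-fed control kidney right, with the 4 arrays of a diet as points and their mean as a bar. For all 8 genes the 4 HFD arrays lie below the 4 chow arrays, with a difference between the means of -2.24 for Scd1 and -0.44 for Srebf1.

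Lpl, the lipase that frees fatty acids from circulating triglyceride, fell by 0.99 (adjusted p = 0.039 from limma). Its values were 9.94, 10.26, 10.10 and 11.005 on HFD and 11.16, 11.28, 11.48 and 11.33 on chow, so that HFD control replicate 4 lay close to the chow arrays. Without that array the change was -1.21, and without HFD replicate 3 the adjusted p was 0.14. Triglyceride synthesis and lipid droplet genes had a median of 0.12 over 26 genes, with none called and 1 higher at the thresholds. Mgll, the monoglyceride lipase, was at 0.46, and Plin2, which coats lipid droplets, at 0.20 with overlapping arrays (adjusted p = 0.11 and 0.34). Among 17 measured apolipoprotein and lipoprotein assembly genes, 5 were higher at the thresholds and none lower, with Apoc3 at 0.55, Apob at 0.36, Apoe at 0.33 and Apoa2 at 0.32, none past the adjustment.

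Fatty acid oxidation genes ran the other way. Of 22 measured genes of the carnitine shuttle and mitochondrial β-oxidation, 17 lay above chow and the median was 0.14, with 2 that rose and 1 that fell. Acaa2, the thiolase of the last step, read 11.22, 11.52, 11.44 and 11.20 on HFD, against 10.97, 11.09, 10.82 and 10.77 on chow, so that its log2 fold change was 0.43 ± 0.09 (standard error; adjusted p = 0.033, limma). Eci1, an isomerase needed for unsaturated fatty acids, read 9.74, 10.12, 10.01 and 9.88 on HFD and 9.51, 9.52, 9.50 and 9.23 on chow, and rose by 0.49. In both, the lowest HFD array stood above the highest chow array, and without HFD replicate 3 the adjusted p was 0.13 each. Ech1, a dienoyl-CoA isomerase of peroxisomes and mitochondria, rose by 0.32, with values of 11.24, 11.35, 11.35 and 11.25 on HFD and 10.94, 10.99, 10.96 and 11.01 on chow. Slc25a20, the carnitine-acylcarnitine carrier, was at 0.43 and Acadvl, the very long-chain acyl-CoA dehydrogenase, at 0.32, with separated arrays but an adjusted p of 0.15 and 0.14. The shuttle's first enzyme, Cpt1a, was at 0.11 with overlapping arrays. The gene that fell was Echs1, the short-chain enoyl-CoA hydratase, which also serves the breakdown of valine. It read 10.13, 10.10, 9.92 and 10.08 on HFD and 10.35, 10.39, 10.27 and 10.41 on chow (log2 fold change -0.30, adjusted p = 0.048 from limma). With 1 control array left out its adjusted p was 0.056 to 0.15, so that it kept its call in none of these fits.

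Of 23 further or shared PPARα target genes, 19 lay above chow, 10 of them at the thresholds and none lower, with a median of 0.25. Only Acaa2 passed the adjustment. Acot3, an acyl-CoA thioesterase, read 7.36, 8.49, 8.65 and 7.58 on HFD and 7.13, 7.35, 6.42 and 6.79 on chow, and its log2 fold change was 1.10 ± 0.32 (standard error; adjusted p = 0.15, limma). HFD replicates 2 and 3 stood above replicates 1 and 4, whereas Acot9, another thioesterase, fell by 0.45. Fabp1, the liver fatty acid-binding protein, was likewise higher in replicates 2 and 3, at a low level, with 4.05, 5.38, 5.06 and 3.97 on HFD and 3.78, 3.70, 3.83 and 3.72 on chow. Pdk4, which blocks pyruvate oxidation, read 8.82, 9.60, 10.14 and 9.67 on HFD and 8.91, 9.11, 9.06 and 8.45 on chow, with overlap. Cyp4a14, a fatty acid ω-hydroxylase and PPARα target, read 12.03, 12.41, 12.24 and 12.10 on HFD and 11.39, 11.47, 7.41 and 10.28 on chow. Its log2 fold change of 2.05 (adjusted p = 0.17) rested in part on chow control replicate 3, and was 1.15 without it. Ppara itself was at 0.15 with overlapping arrays, and the receptors and coactivators as a list had a median of 0.04 over 16 genes with none at either threshold. The 12 genes that the study names for the diet response had a median of 0.32, with 7 higher at the thresholds. The study chose part of this list from its calls on these arrays, so that its direction is not independent evidence. The 3 members that lay below chow were Ppard at -0.18, Pparg at -0.10 and Ppargc1a at -0.14, none of them at either threshold. Acaa2, Apoa2, Fabp1, Slc25a20, Acadvl and Acadl, which the study names, also belong to the PPARα target list. The direction of that list is thus not wholly independent evidence either.

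Of the peroxisomal genes 2 fell and 1 rose. Of 18 measured genes, 10 lay below and 8 above chow, with a median of -0.04, and Acox2 and Amacr fell while Ech1 rose. Acox2, the oxidase for branched-chain and bile acid precursors, read 8.98, 8.63, 8.94 and 9.15 on HFD and 9.47, 9.45, 9.67 and 9.46 on chow (log2 fold change -0.59, adjusted p = 0.014 from limma). Amacr, the racemase that prepares the same substrates, read 11.18, 11.12, 11.08 and 11.40 on HFD and 11.55, 11.66, 11.82 and 11.82 on chow, and fell by 0.52. Neither overlapped between the diets.

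Genes of fructose use rose. Slc2a5, the fructose transporter GLUT5, read 10.25, 10.19, 10.51 and 10.06 on HFD, against 9.70, 9.68, 9.80 and 9.70 on chow (log2 fold change 0.53, standard error 0.09, adjusted p = 0.014 from limma). Khk, ketohexokinase, read 11.10, 11.15, 11.29 and 11.06 on HFD and 10.67, 10.77, 10.76 and 10.73 on chow, and rose by 0.42. Tkfc, the triokinase of the third step, read 10.96, 11.04, 11.23 and 10.82 on HFD and 10.53, 10.52, 10.60 and 10.58 on chow, and rose by 0.46. For these 3 genes every HFD array lay above every chow array. Pklr, the liver-type pyruvate kinase, read 9.31, 9.38, 9.69 and 8.97 on HFD and 8.61, 8.66, 8.45 and 8.67 on chow, and rose by 0.74. The adjusted p of the 4 genes was at most 0.046 with any 1 control array left out.

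Other genes of sugar and citrate handling rose too. Slc13a5, a plasma membrane citrate transporter, read 5.63, 6.03, 5.54 and 5.66 on HFD and 5.32, 5.12, 4.65 and 5.20 on chow, and rose by 0.64 (adjusted p = 0.033 from limma). Pdk1, a pyruvate dehydrogenase kinase, rose by 0.50, whereas its relative Pdk3 fell by 0.46. A second, dim probe set of Pdk1 was at -0.05. Gbe1, the glycogen branching enzyme, and Slc37a4, the glucose 6-phosphate carrier of the endoplasmic reticulum, both named after their values were seen, rose by 0.34 and 0.25. Pck1, which makes phosphoenolpyruvate in gluconeogenesis, was at 0.38 and Slc5a1, the sodium-glucose cotransporter SGLT1, at 0.65, with separated arrays and an adjusted p of 0.053 each. SGLT2, encoded by Slc5a2, was at -0.25 with overlap. Over all 27 measured genes of glycolysis, fructose use and gluconeogenesis the median was 0.01, and the 8 measured pentose phosphate and NADPH genes all lay below chow, with a median of -0.05 and none at either threshold. Ldhd, the D-lactate dehydrogenase, fell by 0.45.

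**Figure D3:**
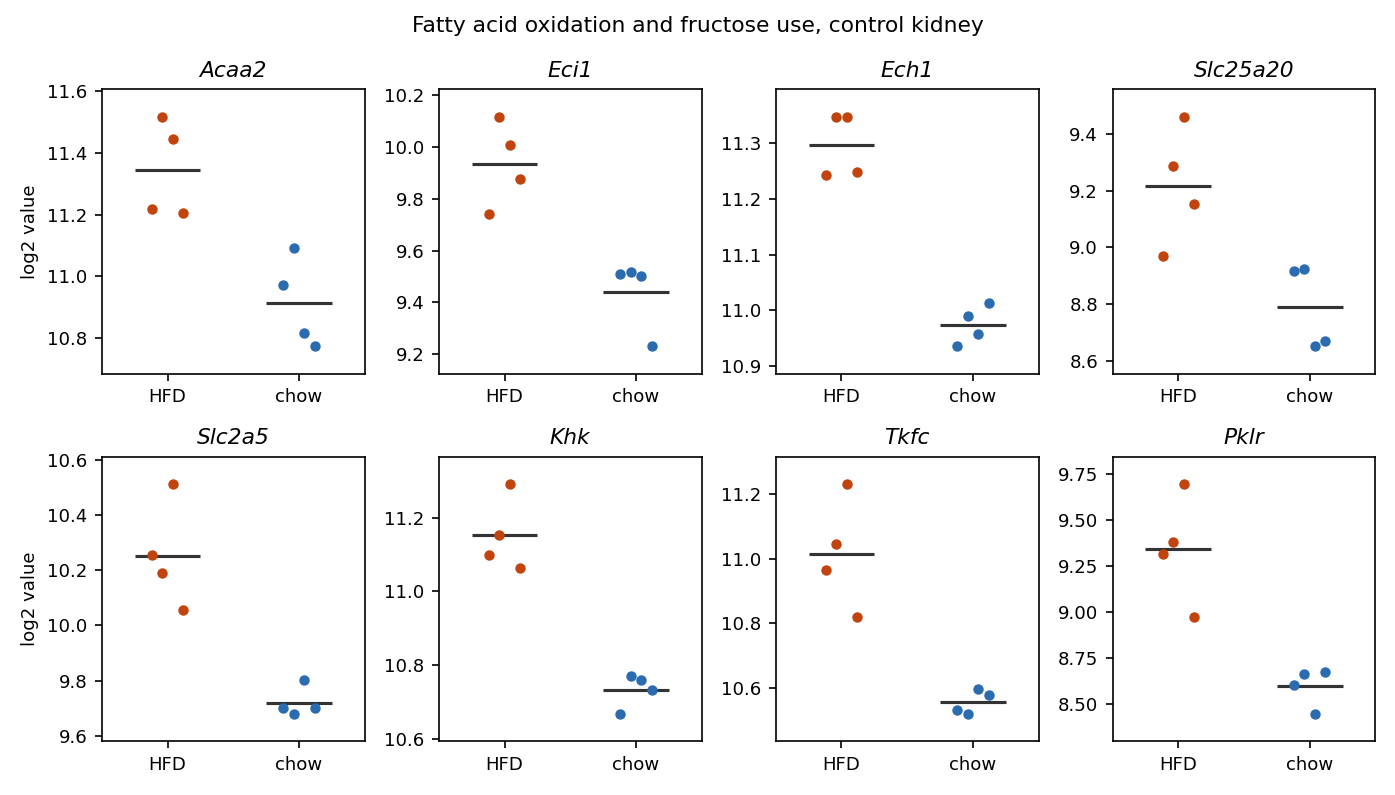
Log2 values of 4 genes of fatty acid oxidation (top) and 4 of fructose use and glycolysis (bottom) on each array, HFD-fed control kidney left and chow-fed control kidney right, with points for the 4 arrays of a diet and a bar for their mean. The diets do not overlap for any of the 8 genes, of which Slc25a20 (0.43) did not pass the adjustment and the other 7 did, and the bars differ by 0.74 for Pklr and by 0.32 for Ech1.

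Several genes of amino acid and ketone body breakdown fell. In the branched-chain amino acid list 21 of 26 measured genes lay below chow, 6 at the thresholds and none above at them, with a median of -0.14. Ivd, the isovaleryl-CoA dehydrogenase of leucine breakdown, read 10.45, 10.08, 9.90 and 10.10 on HFD and 10.80, 10.87, 10.54 and 10.43 on chow, and fell by 0.53 (adjusted p = 0.044 from limma), although HFD replicate 1 overlapped chow replicate 4. Bcat2, the mitochondrial transaminase of the first step, was at -0.32 (adjusted p = 0.13). Of 6 measured ketone body genes 2 fell. Bdh1, the β-hydroxybutyrate dehydrogenase, read 8.23, 7.89, 7.90 and 8.44 on HFD and 8.50, 8.77, 9.01 and 8.85 on chow (log2 fold change -0.67). Oxct1, which activates acetoacetate for use as fuel, read 10.98, 10.67, 10.76 and 10.95 on HFD and 11.22, 11.16, 11.21 and 11.21 on chow (log2 fold change -0.36).

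In tryptophan breakdown, Aadat, an aminotransferase for kynurenine and α-aminoadipate, read 11.27, 11.04, 11.25 and 11.80 on HFD and 11.95, 11.97, 12.05 and 11.999 on chow, and fell by 0.65. Ido2, an indoleamine dioxygenase, fell by 0.32. Of the 19 measured genes of tryptophan and NAD metabolism 6 were lower and 2 higher at the thresholds, and the median was -0.08. Acsm1, a medium-chain acyl-CoA synthetase, read 8.20, 8.14, 8.14 and 7.93 on HFD and 8.81, 9.01, 8.73 and 8.68 on chow, and fell by 0.70 (adjusted p = 0.013 from limma). Aldh1l1, of folate metabolism, fell by 0.40. Cbs, which makes cystathionine, and Gnmt, the glycine methyltransferase, named after their values were seen, fell by 0.59 and 0.50. Of 69 measured subunits of complexes I, III and IV and ATP synthase, 34 lay below and 35 above chow, the median was 0.00, none passed the adjustment and 1 was higher at the thresholds.

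The largest changes among the 125 genes lay in 2 transporters of the proximal tubule, each with 1 array or more far from the others of its diet. Slc22a7, the organic anion transporter OAT2, read 5.89, 6.03, 5.58 and 8.24 on HFD, against 8.74, 8.75, 9.73 and 9.68 on chow, which is 6.92-fold lower (log2 fold change -2.79, standard error 0.55, adjusted p = 0.031 from limma). HFD control replicate 4 stood more than 2 log2 units above the other HFD arrays and just under the chow arrays, and the change was -3.39 without it. Slc7a12, an amino acid transporter, read 10.88, 10.32, 11.34 and 10.21 on HFD and 9.36, 7.92, 6.36 and 7.72 on chow, which is 7.2-fold higher (log2 fold change 2.85, standard error 0.53, adjusted p = 0.025). Here the spread was on chow, where replicate 3 was lowest and replicate 1 highest. Slc22a19, the organic anion transporter OAT5, read 8.999, 8.85, 8.51 and 9.86 on HFD and 10.15, 9.97, 10.20 and 10.20 on chow, and fell by 1.07. Without HFD replicate 3 the adjusted p was 0.13 for Slc22a7, 0.10 for Slc7a12 and 0.15 for Slc22a19.

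Few other transporters passed the adjustment. The main organic anion transporter OAT1 (Slc22a6), named here for comparison, was at -0.02 and OAT3 (Slc22a8) at 0.26 (adjusted p = 0.20), and of 31 measured organic ion transporters the 2 above fell and none rose. Of 42 amino acid transporters in the list Slc7a12 alone passed the adjustment. Slc6a15, a neutral amino acid transporter outside the list that was named after its values were seen, read 7.57, 7.67, 7.62 and 8.06 on HFD and 8.29, 8.37, 8.27 and 8.28 on chow, and fell by 0.57 (adjusted p = 0.035 from limma, and 0.13 without HFD replicate 3). A list of 14 ion, glucose and amino acid transporters also assayed by RT-PCR had a median of -0.03 and none at either threshold. In the mitochondrial inner membrane Slc25a25, a calcium-regulated ATP-Mg/phosphate carrier, read 8.09, 8.30, 8.07 and 7.81 on HFD and 7.50, 7.18, 7.30 and 6.29 on chow, and rose by 1.00. Slc25a48 fell by 0.53. In salt and water handling, Aqp3, the basolateral water channel of the collecting duct, read 8.75, 8.75, 8.74 and 8.75 on HFD and 9.04, 8.97, 9.03 and 9.01 on chow, and fell by 0.27 (adjusted p = 0.025 from limma). It was the only one of 34 measured genes of sodium, chloride, bicarbonate, potassium and water transport to pass. Ace, the angiotensin-converting enzyme, read 10.42, 10.25, 9.79 and 10.66 on HFD and 10.86, 11.07, 11.27 and 11.11 on chow, and fell by 0.80. Agt, angiotensinogen, was at 0.33 (adjusted p = 0.18).

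Slc22a19 belongs to a list of 11 measured genes that androgen raises in kidney, of which 10 lay below chow, with a median of -0.48, 6 lower and 1 higher at the thresholds. Odc1, ornithine decarboxylase, read 10.18, 10.21, 10.28 and 10.70 on HFD and 10.46, 10.64, 11.001 and 11.18 on chow. Slco1a1, an organic anion transporter, read 9.89, 10.15, 9.37 and 10.83 on HFD and 10.26, 10.79, 11.20 and 11.06 on chow. Cyp7b1, an oxysterol hydroxylase, read 9.05, 8.53, 7.79 and 9.55 on HFD and 9.59, 9.51, 10.10 and 9.93 on chow. In each of these 3 genes the diets overlapped only through HFD control replicate 4, and the adjusted p was 0.22, 0.22 and 0.11. Kap, the androgen-regulated kidney protein, one of the most abundant kidney transcripts, read 12.75, 12.73, 12.73 and 12.90 on HFD and 12.94, 12.97, 12.94 and 13.00 on chow (log2 fold change -0.18, adjusted p = 0.15). The exception was Cyp4a12b at 0.71, whose near-identical neighbour Cyp4a12a was at -0.52, so that probe sets of these copies may share signal. Of 7 measured genes that are higher in female kidney 5 lay above chow, with a median of 0.41, 2 lower and 2 higher at the thresholds. Among them Slc7a12 rose, while Akr1c18, a 20α-hydroxysteroid dehydrogenase, was at -1.26 (adjusted p = 0.076).

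**Figure D4:**
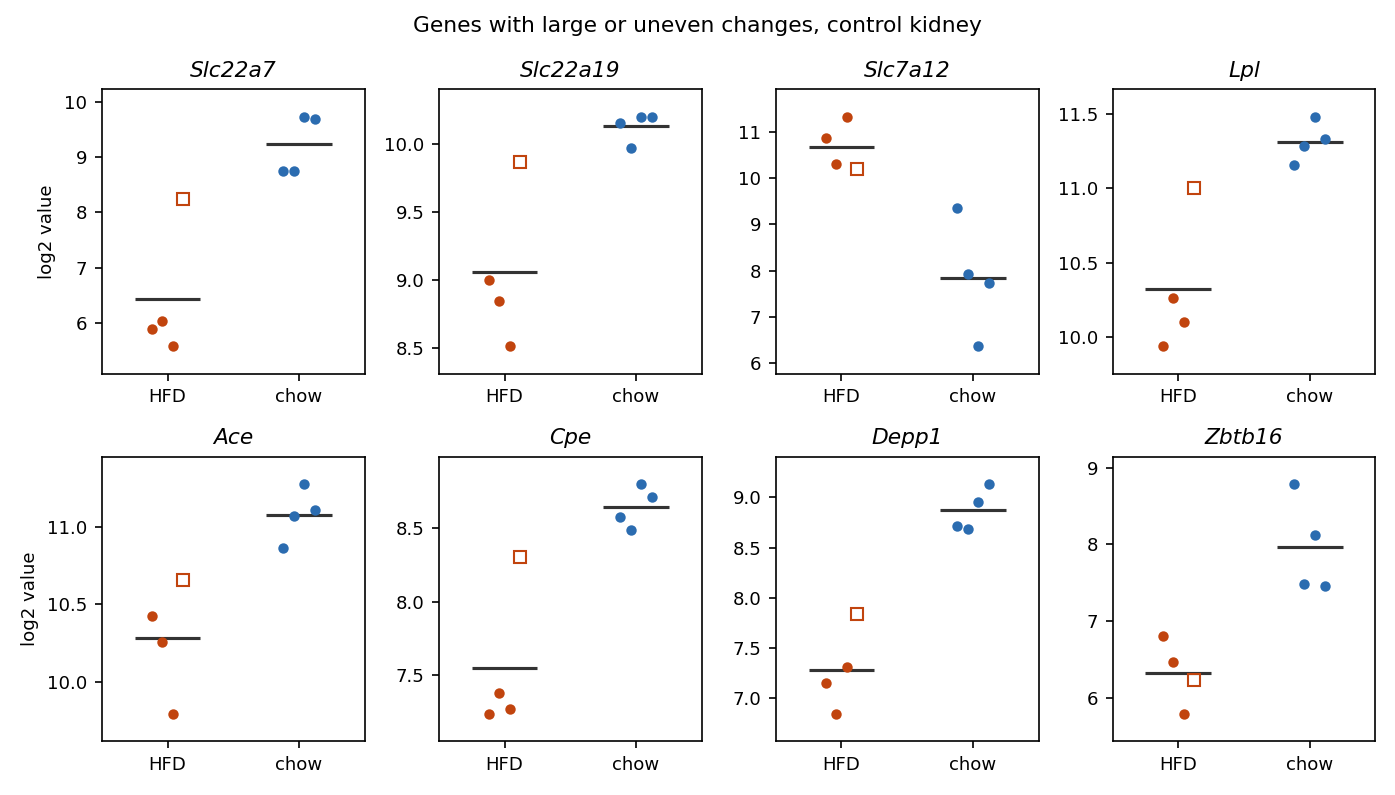
Log2 values of 8 genes with large or unevenly spread changes on each array, HFD-fed control kidney left and chow-fed control kidney right, with the mean of the 4 arrays as a bar and HFD control replicate 4 as an open square. The square is the HFD array nearest to chow for Slc22a7 (8.24), Slc22a19 (9.86), Lpl (11.005), Ace (10.66), Cpe (8.30), Depp1 (7.84) and Slc7a12 (10.21), and not for Zbtb16.

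Depp1 and Zbtb16, which glucocorticoids induce, fell. Depp1, a target of FOXO factors, read 7.15, 6.85, 7.31 and 7.84 on HFD and 8.71, 8.68, 8.95 and 9.13 on chow (log2 fold change -1.59, standard error 0.22, adjusted p = 0.011 from limma). Zbtb16, a zinc-finger transcription factor, read 6.80, 6.47, 5.79 and 6.24 on HFD and 8.79, 7.48, 8.13 and 7.46 on chow (log2 fold change -1.64, adjusted p = 0.022). Klf15, a transcription factor of amino acid breakdown and gluconeogenesis, fell by 0.75, with values of 8.06, 7.85, 7.68 and 7.92 on HFD and 8.75, 8.56, 8.59 and 8.60 on chow. None of the 3 overlapped between the diets. Of the 27 measured glucocorticoid-responsive genes, 9 were lower and 2 higher at the thresholds, yet the median was -0.09, and Fkbp5, Tsc22d3 and Per1, named here as widely used indicators of glucocorticoid action, were at -0.10, -0.06 and -0.22 with overlapping arrays. No circadian gene passed the adjustment among 22 measured. At the thresholds 2 of them were lower and 3 higher, and the median was -0.04. Nr1d1, a repressor of the clock, read 9.16, 8.82, 9.10 and 9.20 on HFD and 9.67, 9.55, 9.99 and 10.02 on chow (log2 fold change -0.74, adjusted p = 0.29 from limma), without overlap. Arntl and Dbp were at -0.15 each. The time of day at which kidneys were taken was not given in the sources used here.

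Id3, an inhibitor of differentiation and a target of BMP signalling, read 8.01, 8.08, 8.68 and 7.81 on HFD and 7.61, 7.43, 7.07 and 7.22 on chow, and rose by 0.82 (adjusted p = 0.037 from limma). Its relatives Id1 and Id2 were at 0.72 and 0.31, the inhibitory Smad7 at 0.33 and Smad9 at 0.40, all past the thresholds and none past the adjustment. Of these 4 Smad9 alone had separated arrays. Id4, named after its values were seen, was at 0.26 with overlap and at neither threshold. Chrdl1, a secreted BMP antagonist, was at -1.02 (adjusted p = 0.074). Over 27 measured genes of BMP and TGF-β signalling 5 were higher and 1 lower at the thresholds, with a median of 0.08. After Slc7a12 the largest rise was that of Klk1b7-ps, a kallikrein pseudogene by its name, which read 6.06, 6.94, 6.76 and 5.82 on HFD and 5.18, 4.97, 5.26 and 4.20 on chow (log2 fold change 1.496, adjusted p = 0.017 from limma). Its arrays did not overlap, and without HFD replicate 3 the adjusted p was 0.071. Among the other genes with the largest rises, Fgf18, a fibroblast growth factor, read 6.64, 6.61, 7.03 and 6.60 on HFD and 6.06, 5.85, 6.22 and 5.90 on chow, and rose by 0.71. Col27a1, a fibrillar collagen, and Mpzl2, a cell adhesion protein, rose by 0.76 each, Crybg2 by 0.65, Tmie by 0.60, Brca2, of DNA repair, by 0.53 and Dzip1 by 0.52.

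Among the other genes with the largest falls, Cpe, carboxypeptidase E, read 7.24, 7.38, 7.27 and 8.30 on HFD and 8.58, 8.49, 8.80 and 8.71 on chow, and fell by 1.10. B4galt5, a galactosyltransferase of glycolipid synthesis, fell by 0.98, Nxpe3 by 0.72 and Tspan13 by 0.71. Defb29, a defensin, had the smallest p of all genes, with 7.85, 7.82, 7.49 and 8.05 on HFD and 8.52, 8.75, 8.91 and 9.02 on chow (log2 fold change -0.999, adjusted p = 0.011 from limma). Its arrays did not overlap between the diets. Pzp, a protease inhibitor of plasma, fell by 1.28, Serpina1c, an α1-antitrypsin, by 1.13 and Smcp, a sperm mitochondrial protein, by 1.13. Klk1b16, a kallikrein, fell by 1.204, whereas Klk1b7-ps, named as a pseudogene of the same family, rose by 1.496. The kallikrein and serpin genes have near-identical copies, so that their probe sets may read several of them.

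Few genes of injury and inflammation passed the adjustment. Cxcl1, a neutrophil chemokine, read 5.10, 5.03, 5.03 and 4.89 on HFD and 4.44, 4.59, 4.50 and 4.67 on chow, and rose by 0.46 at a level below the median of all genes (adjusted p = 0.018 from limma). Mmp12, a macrophage elastase, read 6.33, 6.70, 6.39 and 6.65 on HFD and 5.92, 6.02, 6.13 and 5.65 on chow, and rose by 0.59. Lcn2, an injury marker of the tubule, read 7.14, 7.26, 7.29 and 6.998 on HFD and 6.46, 6.12, 6.10 and 6.26 on chow (log2 fold change 0.94, adjusted p = 0.089). Its arrays did not overlap, and the adjusted p was 0.013 in the fit of the 8 control arrays alone and 0.094 to 0.22 with 1 control array left out. Havcr1, which encodes KIM-1, was at 0.37 with overlap (adjusted p = 0.56). Of 20 measured injury and repair markers 15 lay above chow, with a median of 0.13 and none past the adjustment. The medians were 0.05 over 31 chemokines and cytokines, -0.03 over 36 collagen, matrix and fibrosis genes, -0.00 over 17 NF-κB genes and 0.01 over 28 interferon-stimulated genes. Of the last list Gbp6, an interferon-induced GTPase near the lower end of the scale, read 3.07, 3.01, 2.98 and 3.12 on HFD and 3.24, 3.26, 3.51 and 3.50 on chow, and fell by 0.33.

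The summed level of the proximal tubule list, as the mean log2 value of its 13 genes, was 11.78 to 11.81 on HFD and 11.77 to 11.84 on chow. That of the loop of Henle, distal and collecting duct list was 9.29 to 9.43 on HFD and 9.39 to 9.55 on chow, with 14 of 18 genes below chow, and Aqp3 is among them. At the thresholds 5 of these 18 genes were lower and 1 higher, and the median change was -0.14. Podocyte markers lay at 7.20 to 7.33 on HFD and 7.03 to 7.21 on chow, with 7 of 8 genes above chow, and endothelial markers at 9.03 to 9.11 on HFD and 8.93 to 9.04 on chow, with 10 of 11 above. Leukocyte markers lay at 5.66 to 5.93 on HFD and 5.66 to 5.86 on chow, with 11 of 17 above. Their median change was 0.12, and 4 of them were higher and none lower at the thresholds. Of the adipocyte markers Adipoq was at 4.00 to 4.33 on HFD and 4.29 to 4.62 on chow, below the median of all genes of 5.94, and Lep at 4.52 to 5.87 on HFD and 4.49 to 4.77 on chow. The mean over the 13 measured adipocyte markers was 6.417 to 6.742 on HFD and 6.744 to 6.806 on chow, which just did not overlap, although the median change was 0.03. Of these 13 genes 6 lay below chow, 3 of them at the thresholds, which were Lpl with the only call, Car3, a carbonic anhydrase, at -1.22 with separated arrays (adjusted p = 0.086, limma) and Retn, resistin, at -0.60 with overlap (adjusted p = 0.20). Adrenal, skeletal muscle and hepatocyte lists had medians of 0.10, 0.03 and -0.01. The part of these shifts in the gene changes was not tested.

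Ppargc1a, the gene of PGC-1α, read 9.96, 9.96, 10.07 and 9.96 on HFD and 9.91, 10.18, 10.05 and 10.09 on chow in the arrays labelled NiPKO, against 9.57, 9.52, 9.45 and 9.32 on HFD and 9.68, 9.59, 9.56 and 9.60 on chow in control kidney. Its probe set was thus higher in every array labelled NiPKO than in any control array, and a loss of the gene was not seen in it. Which exons its probes read was not given in the sources used here, and the deletion takes out only some exons of the gene, so that it does not check the deletion. The study also assayed the deletion by PCR on kidney DNA and RNA, which was not analysed here. Directions in these arrays rest on their labels.

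The HFD response in the arrays labelled NiPKO lay mostly in the same direction as in control kidney. Of the 86 genes that fell in control kidney 79 lay below chow in the arrays labelled NiPKO, and of the 39 that rose 32 lay above. The size was larger in control kidney for 114 of the 125, but the 125 were chosen for their size in control kidney. HFD changed 58 genes in the arrays labelled NiPKO at an adjusted p under 0.05 from limma (0.261%). The median of the sterol synthesis genes was -0.27 in control kidney and -0.23 in the arrays labelled NiPKO, where 15 of 18 lay below chow, and Fads1 was at -0.63 in both. The PPARα targets had a median of 0.25 in control kidney and 0.07 in the arrays labelled NiPKO. The androgen-induced genes had one of -0.48 in control kidney and -0.21 in the arrays labelled NiPKO. The differences between these medians were not tested.

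Gene by gene, the interaction of diet and genotype gave 0 genes at an adjusted p under 0.05 (0%) with limma, where the smallest was 0.12, and 1828 at an unadjusted p under 0.05 (8.24%), 39 of them among the 125. Cxcl1, at 0.46 in control kidney and -0.15 in the arrays labelled NiPKO, had an adjusted interaction p of 0.23. For Aqp3 the changes were -0.27 in control kidney and -0.04 in the arrays labelled NiPKO, and for Zbtb16 they were -1.64 and -0.46 in the same order, with an unadjusted interaction p of 0.0054 and 0.013. For Sqle they were -0.87 in control kidney and -0.39 in the arrays labelled NiPKO, and for Khk 0.42 and 0.22 in the same order (unadjusted interaction p from limma 0.023 and 0.036). None of these passed the adjustment. The 125 genes, these 5 among them, were chosen on the control difference, which is also part of the interaction. This choice favours small unadjusted interaction p among them, so that the 39 cannot be set against the 8.24% of all genes.

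**Figure D5:**
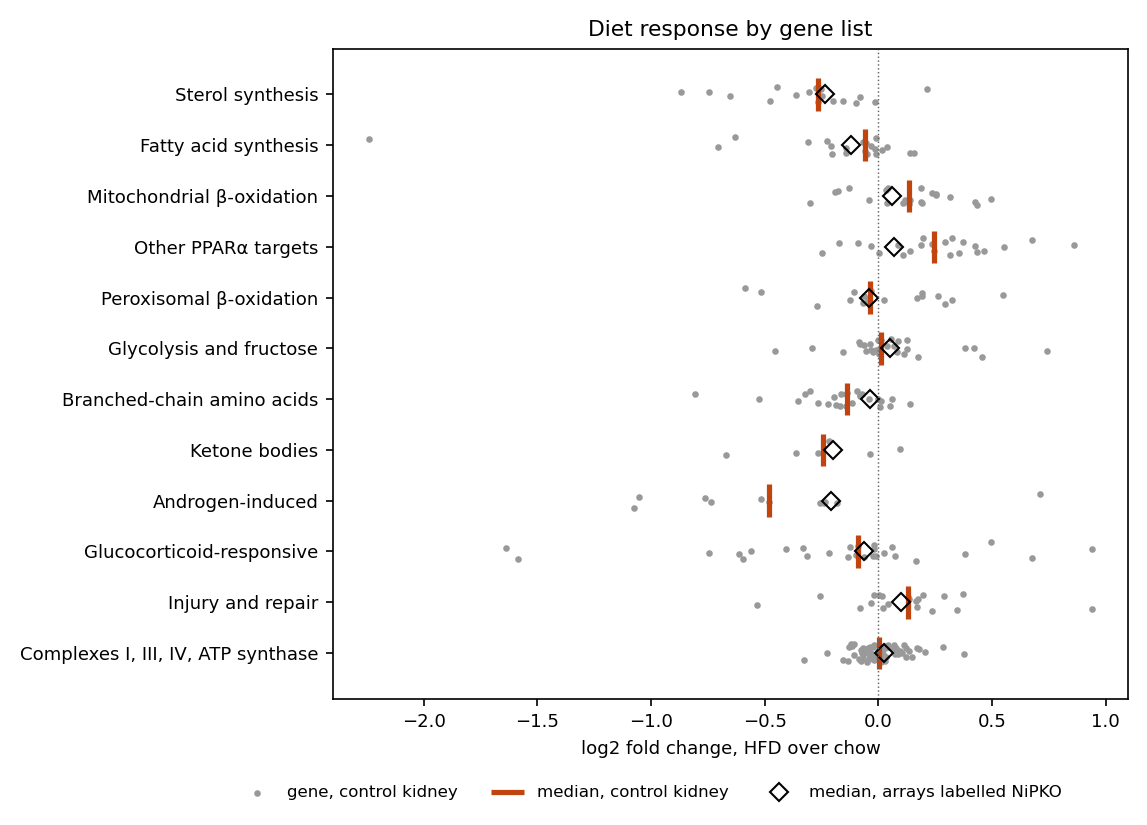
Log2 fold changes of HFD over chow in control kidney for the measured genes of 12 lists, 1 point a gene, with the median of a list in control kidney as a bar and its median in the arrays labelled NiPKO as an open diamond. The medians of the sterol synthesis genes (-0.27) and the androgen-induced genes (-0.48) lie below 0, those of the PPARα targets (0.25) and of mitochondrial β-oxidation (0.14) above it, and that of the respiratory chain subunits at 0.00.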

How the data were processed

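Kidney RNA of 16 arrays (Affymetrix Mouse Gene 2.0 ST, 4 per group) was analysed, and all groups came from the labels. The authors deposited normalized log2 values made in Partek. Its version, the background correction and the normalization were not given in the sources used here, so their effect on the values is unknown. Array medians lay between 5.35 and 5.40, and control arrays correlated at 0.987 to 0.992. No scan dates or slides were given, so batches were not tested. Precision is limited by how many arrays there are.

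Of 41345 probe sets, 23521 had 1 gene symbol, 1820 had several and 16004 had none in the platform annotation. The brightest probe set was kept for each of 22180 genes, 1082 of which had several. Group means were fitted over all 16 arrays with limma 3.58.1 (R 4.3.3; 12 residual degrees of freedom), and p-values were adjusted over all genes. The script was tested on simulated data. Promoters, read as the 250 bases before each start, were those of RefSeq, build GRCm38.p6. Tables and plots were made with Python 3.11.15.

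The genes, lists and tests were chosen with earlier results of these data known. Named were, for each direction, the 20 largest changes among genes that were called and separated, the 8 genes with the smallest p and all called genes of each list, the genes the study names, and defining genes of a list. Predicted genes were counted but not named. Alternatives covered the arrays fitted, normalization, dim genes, the test, the probe sets, the replicate number as a block and each control array left out.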

Additional observations from a re-analysis of the deposited data

Results flagged for a closer look

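In 19 of 262 groups of 4 control arrays, over the genes with values in the text, 1 array stood apart from the others by Dixon's criterion. Chance marks about 1 in 20 groups. No gene was marked for a difference between the responses of control kidney and the arrays labelled NiPKO.

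HFD control replicate 4 was marked for 4 genes. It read 8.24 for Slc22a7, where the other HFD arrays lay between 5.58 and 6.03, and 8.30 for Cpe, where they lay between 7.24 and 7.38. It read 12.90 for Kap (others 12.73 to 12.75) and 5.42 for Smad9 (others 5.64 to 5.66). HFD replicate 3 was marked for Fgf18 at 7.03, for Mgll at 7.77 and for Slc5a1 at 9.78, above the other HFD arrays each time, and HFD replicate 2 for Fasn at 8.31, below them.

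The other 11 marks were on chow. Replicate 3 was marked for Acox2 at 9.67, for Apob at 10.72 and for Fads2 at 11.56. Replicate 4 was marked for Ebp at 9.35, for Eci1 at 9.23 and for Slc37a4 at 11.52. Replicate 2 was marked for Oxct1 at 11.16, for Per1 at 7.88, for Slc6a15 at 8.37 and for Tmie at 7.14, and replicate 1 for Fasn at 9.27.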

How the results depend on the processing

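The count of 125 genes at an adjusted p under 0.05 was 14 on the control arrays alone, 66 with the replicate block, 216 with a mean-variance trend and robust prior and 272 among the brighter genes, where fewer genes were tested. The methods' t-test gave 0 after Benjamini-Hochberg adjustment and 765 at the thresholds. With 1 control array left out the count ranged from 24 (without HFD replicate 3) to 219 (without HFD replicate 4). The 1030 genes at the thresholds became 622 among the brighter genes and 115 at a fold change over 1.5. The interaction count of 0 became 1 among the brighter genes, and between 0 and 2 with an array left out (2 without chow replicate 4). The cause of these shifts was not tested.

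Of 68 called genes in the text, 59 kept their call after quantile normalization, 66 after centring on the median, 9 on the control arrays alone and 34 with the replicate block, and none of these changed direction under any alternative. Of the 63 genes without a call Elovl6, Fkbp5, Slc22a6 and Tsc22d3 did, under quantile normalization (Elovl6) or with an array left out. Same-numbered HFD and chow arrays had correlations of 0.137, -0.0077, -0.0468 and 0.0341 between their deviations. Those of arrays with different numbers ran from -0.1425 to 0.139 and enclosed them. So few pairs cannot exclude a pairing by number. Of 64 list medians, 3 moved by more than the spread between arrays with median centring and 1 with quantile normalization, 11 of 62 did among the brighter genes, and between 0 and 6 did with an array left out (6 without chow replicate 3). Array signal and the number of arrays limit the dim and low-fold changes.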

Other observations

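Gene groups not described above held few calls for the diet in control kidney at an adjusted p under 0.05. At the thresholds of the methods some of them lay above the shares of all genes, which were 2.34% lower and 2.3% higher. Of 43 measured glutathione and conjugating enzymes, 1 fell, Nat8, a cysteine conjugate N-acetyltransferase of the proximal tubule. It read 7.54, 7.52, 7.20 and 7.43 on HFD, against 7.74, 7.90, 7.75 and 7.81 on chow (log2 fold change -0.38, adjusted p = 0.044 from limma), and the diets did not overlap. Of 37 measured cytochrome P450 genes, none passed the adjustment, 8 were lower and 3 higher at the thresholds of the methods, and the median was -0.05. Of 28 ABC transporter genes 4 were higher and none lower at the thresholds, and of 29 cell cycle genes 3 were higher and none lower, with medians of -0.02 and 0.04. Of 24 genes of phosphate, calcium and vitamin D handling 3 were lower and none higher, and of 26 genes of insulin and IGF signaling likewise 3 were lower and none higher, with medians of -0.04 and -0.01. The 27 heat shock and chaperone genes and the 27 immediate early genes had 2 lower each at the thresholds. Of 26 acute phase and complement genes 4 were lower and 5 higher at the thresholds, with a median of 0.05. Pzp alone of that list passed the adjustment.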
